A study of Papio anubis with 12 samples.

Results

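The miR-23, miR-27 and miR-24 family was followed in 12 small RNA libraries, each from the frontal cortex of a fetal baboon (Papio anubis). Its members were taken by name, as every entry of the deposited table whose precursor was hsa-mir-23a, hsa-mir-27a, hsa-mir-24-2, hsa-mir-23b, hsa-mir-27b or hsa-mir-24-1 (human names, since the table uses these for the baboon). These 6 precursors gave 12 of the 2234 entries and 11 of the 1921 mature miRNA names. All 11 had at least 1 read, and 9 of them reached the mean of 1 read per 1000000 counted reads (RPM) that was required for a test, as did 481 names in all.

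In 6 fetuses the mother had eaten freely (controls), and in the other 6 she was nutrient restricted (MNR) at 70% of the intake of controls per unit of body weight. Every fetus was at day 165 of gestation, every mother ate the same biscuit diet, and of the 6 fetuses per diet replicates 1 to 3 were female and 4 to 6 male. Libraries held 513029 to 1898763 counted reads, so that 1 read was worth 1.95 RPM in control replicate 6, the shallowest, and 0.527 RPM in control replicate 3, the deepest. Neuronal miRNAs were abundant in all libraries, with miR-9-5p, miR-128, miR-124-3p and 5 further neuron miRNAs summing to 91223 to 125590 RPM, as the tissue label implies. Control replicate 6 stood apart for miRNAs of other tissues, with 821 RPM of the HOX locus miRNA miR-10a-5p (4.82 to 286 RPM in the other 11) and 9.75 RPM of the liver miRNA miR-122-5p (0 to 4.76 RPM), and the leading diet differences are given without it too. Replicate numbers were assigned by record order and do not pair fetuses across diets.

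Vertebrates carry these miRNAs in paralogous gene clusters, each transcribed as 1 precursor RNA from which a miR-23, a miR-27 and a miR-24 hairpin are cut. The mir-23a, mir-27a and mir-24-2 hairpins form one cluster and the mir-23b, mir-27b and mir-24-1 hairpins the other, which in humans lies in an intron of the aminopeptidase gene AOPEP. The hairpin's 3p arm is usually the guide strand, kept by Argonaute to repress messenger RNAs, and the 5p arm the passenger strand, which is mostly degraded. The family is known for roles in blood vessel growth, in lipid metabolism (miR-27), in the death and survival of neurons (miR-23b, miR-27b and miR-24), and, in the mouse, in oligodendrocyte maturation (miR-23a).

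The guide strand of mir-27b dominated the family. miR-27b-3p (MIMAT0000419) ranged from 4200 to 8695 RPM, with a mean of 5665 ± 1376 RPM (SD, n = 12), and ranked 23rd of all mature names by mean level. It took 73.6% of the RPM of the 11 members on average, between 67.9% and 76.5% in single fetuses. The other guide strands lay close together. miR-24-3p (MIMAT0000080), which both clusters produce, was at 634 ± 155 RPM, miR-23b-3p (MIMAT0000418) at 525 ± 110 RPM, miR-27a-3p (MIMAT0000084) at 489 ± 107 RPM and miR-23a-3p (MIMAT0000078) at 313 ± 72.7 RPM (SD, n = 12). Each of the 4 means lay within the spread over fetuses of its neighbour, except that of miR-23a-3p, which was more than 1 SD below miR-27a-3p.

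The passenger strands were rare. The most abundant was miR-24-2-5p (MIMAT0004497), at 18.4 ± 7.03 RPM, followed by miR-27b-5p (MIMAT0004588) at 8.60 ± 2.94 RPM (SD, n = 12). miR-24-1-5p (MIMAT0000079) stood at 2.09 ± 1.44 RPM and miR-27a-5p (MIMAT0004501) at 1.65 ± 0.957 RPM, which rested on 32 and 25 reads over the 12 libraries. miR-23b-5p (MIMAT0004587) had 8 reads, in 6 of the libraries, and miR-23a-5p (MIMAT0004496) had 1 read, in MNR replicate 1. The 6 control libraries held no read of miR-23a-5p, which allows a level of up to 0.379 RPM (3 reads of 7921600, counting error only). All 6 passenger strands together came to 31.4 RPM on average against 7626 RPM for the 5 guide strands.

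**Figure D1:**
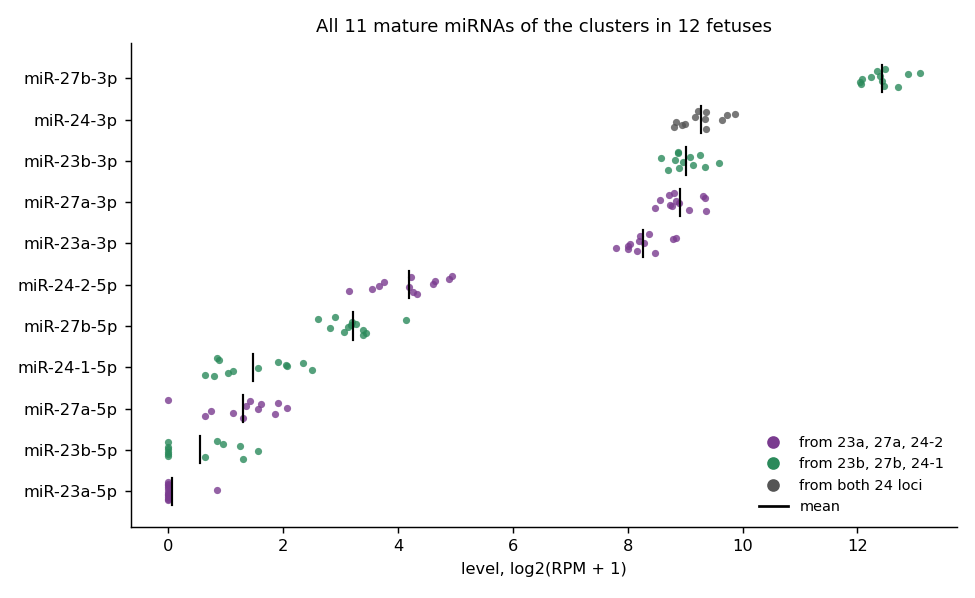
Level of each of the 11 mature miRNAs in the 12 fetuses, as log2(RPM + 1) on the horizontal axis. Each dot is a fetus, coloured by the gene cluster of the hairpin, and the black bar is the mean. The 5 guide strands (3p) lie to the right of all 6 passenger strands (5p), and miR-27b-3p lies apart at 4200 to 8695 RPM.

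The first comparison asked how the paralogous clusters share the output of the family. Levels in RPM were compared within each library as the log2 ratio of (RPM + 1), with no correction for length, since a read stands for a whole mature miRNA. These are ratios of reads, and how efficiently each miRNA was captured into a library was not measured. A capture difference shared by all fetuses would enter the ratios of paralogs, arms and cluster members alike, and agreement between fetuses cannot reveal it. Guide strands of the mir-23b cluster were higher than their paralogs in every fetus, and the passenger strand of miR-24 went the other way. miR-27b-3p exceeded miR-27a-3p 11.5-fold on average (log2 ratio of 27a-3p over 27b-3p -3.52 ± 0.203, SD, n = 12; range -3.83 to -3.20). miR-23b-3p exceeded miR-23a-3p 1.68-fold (log2 ratio of 23a-3p over 23b-3p -0.75 ± 0.455, range -1.59 to -0.23).

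miR-24-2-5p, from the mir-23a cluster, exceeded its counterpart miR-24-1-5p 6.52-fold (log2 ratio 2.70 ± 0.795, SD, n = 12; range 1.69 to 4.09). That fold depends on the pseudocount, and was 10.5 without one and 3.22 with 5 RPM. In reads, that was 284 against 32, or 8.88-fold more (6.15 to 13.2 as the exact 95% interval of counting error). Thus the same cluster that held the smaller amount of miR-23 and miR-27 guide strand held the larger amount of miR-24 passenger strand. Of the other passenger strands, miR-27b-5p exceeded miR-27a-5p (log2 ratio of 27a-5p over 27b-5p -1.91 ± 0.603, or -2.41 without a pseudocount and -1.02 with 5 RPM; 131 against 25 reads, ratio 5.24, interval 3.40 to 8.39).

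These 4 paralog ratios had the same sign in 12 of 12 fetuses, with the smallest p that 12 fetuses allow (p = 0.000488 in an exact sign-flip permutation test on both sides; 0.00061 after adjustment over 5 paralog ratios). For miR-23b-5p against miR-23a-5p there were 8 reads and 1 read, a ratio of 8 (interval 1.07 to 355). Its log2 ratio was below 0 in 6 fetuses, above 0 in 1 and 0 in the rest (exact permutation adjusted p = 0.0469), and leaving out a single fetus (control replicate 1, 2 or 6, or MNR replicate 3, 4 or 6) ended the call.

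Some of these levels are uncertain because paralogs are near-identical. The mature miR-23a-3p and miR-23b-3p, like miR-27a-3p and miR-27b-3p, differ by so little that the authors' counting could have moved reads between them, and how such reads were assigned is not given in the sources used here. For miR-24-3p no split between loci exists. Its mir-24-1 and mir-24-2 entries differed by 0 to 5 reads per library (0 to 0.681% of the reads), and the entry with more reads, that of mir-24-1, was used. The 5p arms of mir-24-1 and mir-24-2 differ in sequence and are the readable difference between those loci. miR-23c, the remaining miR-23 name in the table, had 1 read in control replicate 1 (0.73 RPM) and 0 in the other 11 libraries.

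**Figure D2:**
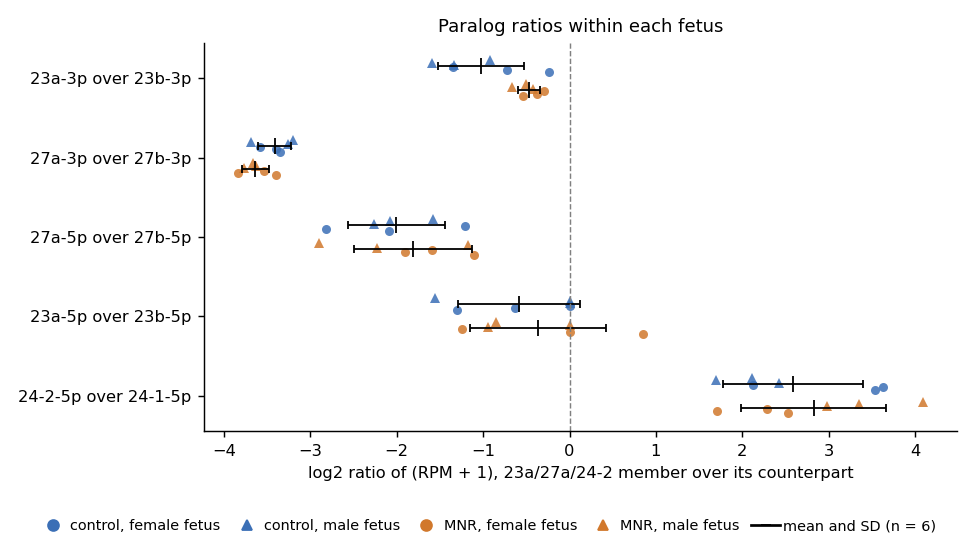
Log2 ratio of (RPM + 1) of each mir-23a, mir-27a or mir-24-2 product over its counterpart from the other cluster, within each fetus. Circles are female and triangles male fetuses, blue controls and orange MNR, and black bars give mean and SD (n = 6 per diet). All ratios of 23a-3p, 27a-3p and 27a-5p lie below 0 and all ratios of 24-2-5p lie above 0.

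The next comparison concerned the arms of each hairpin. In mir-23a, mir-23b, mir-27a and mir-27b the 3p arm was the higher one in 12 of 12 fetuses. The shared miR-24-3p likewise exceeded the 5p arm of mir-24-1 and that of mir-24-2 in 12 of 12. Since its reads are not split between those loci, this does not show which arm was higher within either hairpin. For each of the 6 arm ratios the adjusted p was 0.000488 in the same exact permutation test, the smallest possible. The 3p arm of mir-27b had 87947 reads against 131 for its 5p arm, 671-fold more (exact 95% interval of the counting error 566 to 803). For mir-23b the ratio was 1022 on only 8 passenger reads (519 to 2369), which overlaps that of mir-27b. For mir-27a it was 301 (204 to 466), below both in pooled reads. In single fetuses the ratio ran from 135 to 971 for mir-27a, with no value in MNR replicate 6, which had 0 passenger reads. For mir-27b it ran from 441 to 1025. The hairpins thus overlapped between fetuses, and the intervals rank the pooled reads only. mir-23a gave 4848 guide reads and 1 passenger read, a ratio whose interval ran from 870 to 191525 and lay above that of mir-27b, again in pooled reads.

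The ratio of miR-24-3p to miR-24-2-5p was 33.3 (interval 29.6 to 37.6), with log2 ratios of the 5p over the 3p arm between -5.97 and -4.27 in single fetuses. For mir-24-1 the ratio of the shared miR-24-3p to miR-24-1-5p was 295.5 (209 to 432), with log2 ratios between -8.57 and -6.34. Because miR-24-3p reads come from both hairpins, each of these ratios is an upper value for its own hairpin, and the mir-24 loci cannot be ranked by it. Even as an upper value, that of mir-24-2 lay below the intervals of the mir-23 and mir-27 hairpins.

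Maternal diet was then compared across all miRNAs, to ask which differ in the fetal cortex under restriction. No member of the family passed the test, against 13 of 481 miRNAs in all (2.7%; limma on log2(RPM + 1), Benjamini-Hochberg adjusted p under 0.05 as threshold). Of all miRNAs 3 passed by edgeR, 9 by DESeq2 and 3 by voom on recovered reads, again with 0 members. DESeq2 gave no adjusted p for miR-24-1-5p, miR-24-2-5p, miR-27a-5p and miR-27b-5p, so its result covers the other tested members only. Adjusted p of the 9 tested members ran from 0.171 to 0.996. At an unadjusted p under 0.05 there were 2 members of 9, miR-24-2-5p and miR-23a-3p, beside 105 of all 481 (21.8%). This pair changed with the scaling. Under median-ratio scaling, TMM scaling, edgeR, DESeq2 and voom 1 member had an unadjusted p under 0.05, and it was miR-23b-3p, with a log2 difference below 0. Without control replicate 4 or MNR replicate 4 there were 0. The median log2 difference (MNR minus control) was 0.27 over the 9 members and 0.23 over all tested miRNAs, and 8 of the 9 lay above 0, as did 78.4% of all; under median-ratio scaling the median over all was 0.033, and miR-27a-3p and miR-27b-5p were then below 0 as well. In tissue libraries, fewer cells of a type and less of a miRNA per cell cannot be told apart.

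Of the mir-23a cluster, miR-23a-3p was at 222 RPM at the lowest, 258 RPM in the median and 353 RPM at the highest of the controls. In MNR fetuses the lowest, median and highest were 294, 320 and 455 RPM. The control median was exceeded in all 6 MNR fetuses, and 5 of 6 controls lay below the lowest MNR fetus, with control replicate 1 the exception at 353 RPM. The log2 difference was 0.37 ± 0.157 (SE; 95% interval 0.042 to 0.70; limma adjusted p = 0.185). It was 0.15 under median-ratio scaling (adjusted p = 0.608), 0.17 under TMM scaling (0.595) and 0.15 by DESeq2 (0.529).

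miR-24-2-5p had 7.90, 14.5 and 19.1 RPM as lowest, median and highest level in controls and 12.5, 23.6 and 29.9 RPM in MNR. The groups overlapped, with 4 of 6 MNR fetuses above the highest control. Its log2 difference was 0.65 ± 0.267 (SE; interval 0.089 to 1.21; limma adjusted p = 0.171), and 0.44 under median-ratio scaling (adjusted p = 0.432). Without control replicate 6 the log2 differences were 0.61 for miR-24-2-5p and 0.36 for miR-23a-3p (limma adjusted p = 0.187 for both). In the authors' deposited table the unadjusted p-values were 0.0274 for miR-24-2-5p and 0.0416 for miR-23a-3p, and those of the other members lay above 0.1.

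miR-27a-3p, made from the same precursor, had similar means, 480 ± 105 RPM for controls and 498 ± 117 RPM for MNR fetuses (SD, n = 6). Its log2 difference was 0.047 (interval -0.32 to 0.41, adjusted p = 0.908), and it turned to -0.17 and -0.15 under median-ratio and TMM scaling. Its passenger strand miR-27a-5p was at 1.41 ± 0.790 and 1.88 ± 1.12 RPM, with 11 and 14 reads.

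Of the mir-23b cluster, miR-23b-3p was the single tested member with a log2 difference below 0. Its lowest, median and highest levels were 416, 530 and 769 RPM in controls and 380, 468 and 613 RPM in MNR. The groups overlapped widely, with 2 controls above and 1 MNR fetus below the range of the other diet (log2 difference -0.19 ± 0.161, SE; interval -0.53 to 0.15; adjusted p = 0.531). The difference stayed below 0 in all 24 alternatives, from -0.45 to -0.091, with adjusted p from 0.0898 (DESeq2) to 0.829. Relative to the median of all miRNAs it was -0.42.

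miR-27b-3p had 4200, 4935 and 6700 RPM as lowest, median and highest level in controls and 4800, 5527 and 8695 RPM in MNR. MNR replicates 3 and 4 stood alone above the highest control (log2 difference 0.27, interval -0.080 to 0.62, adjusted p = 0.348; 0.050 under median-ratio scaling, adjusted p = 0.895). miR-27b-5p was at 8.36 ± 1.55 and 8.84 ± 4.07 RPM (SD, n = 6; log2 difference 0.0042, adjusted p = 0.996), slightly below 0 under either other scaling. miR-24-1-5p was at 1.69 ± 1.54 and 2.48 ± 1.35 RPM (log2 difference 0.41, interval -0.40 to 1.22, adjusted p = 0.565), on 13 and 19 reads.

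miR-24-3p, the product of both loci, had 448, 501 and 797 RPM as lowest, median and highest level in controls and 575, 651 and 928 RPM in MNR. Its log2 difference was 0.35 ± 0.168 (SE; interval -0.0089 to 0.70; limma adjusted p = 0.238), and 0.12 under median-ratio scaling (adjusted p = 0.745). The groups overlapped through control replicates 1 and 6, the other 4 controls lying below every MNR fetus. Without control replicate 6 the log2 difference was 0.45 (adjusted p = 0.0989). Neither miR-23b-5p (4 reads in each diet) nor miR-23a-5p (0 and 1 read) reached the level needed for a test.

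**Figure D3:**
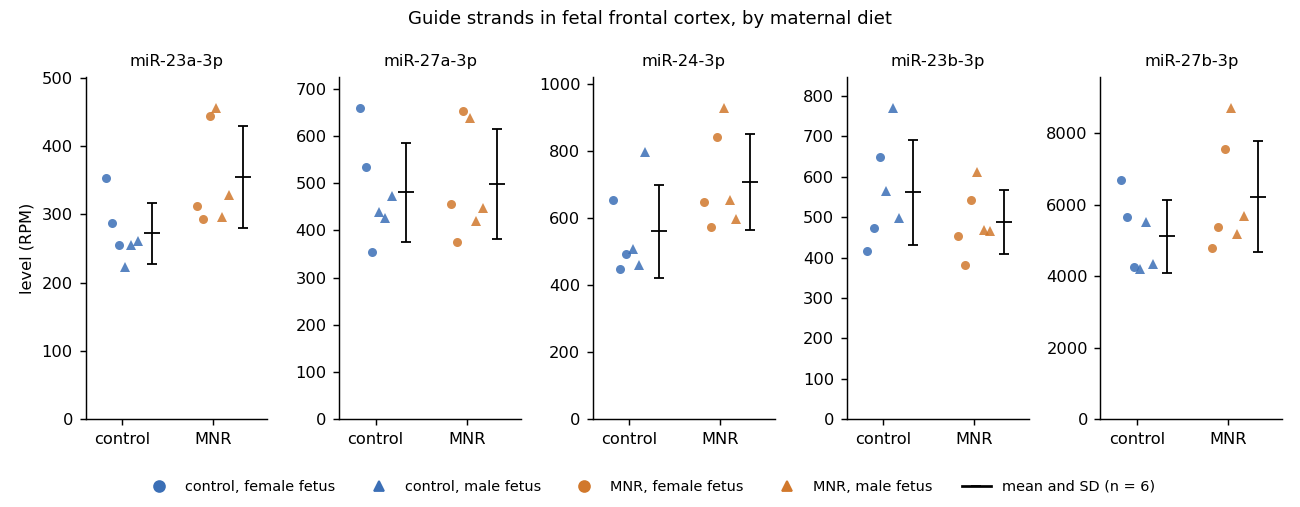
Level in RPM of the 5 guide strands in each fetus, controls in blue and MNR in orange, circles female and triangles male, with mean and SD beside them (n = 6 per diet). Each panel has its own vertical axis, starting at 0. MNR replicates 3 and 4 are the highest MNR fetuses in all 5 panels.

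Ratios within a library cancel its scaling, apart from the weight of the constant 1 RPM, which matters for the rare passenger strands. Between diets 13 ratios were compared. None passed after adjustment. The smallest p belonged to the ratio of miR-27a-3p to miR-23a-3p, guides that come from 1 precursor. Its log2 value was 0.81 ± 0.179 in controls and 0.48 ± 0.0748 in MNR (SD, n = 6), with 5 of 6 controls (0.74 to 0.97) above every MNR fetus (0.35 to 0.56). The difference was -0.32 ± 0.0791 (SE; p = 0.0108 by an exact two-sided permutation test, 0.141 when adjusted over 13 ratios). Control replicate 3, at 0.47, was the control within the MNR range. Without this overlapping fetus the diets separate fully, so p takes the smallest possible value (exact permutation p = 0.00216, adjusted p = 0.0281). That value follows from the choice of fetus and adds no support.

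The ratio of the miR-23 guides, which shares miR-23a-3p with the ratio above, was higher in MNR and likewise did not pass. In controls miR-23a-3p made up 33.2 ± 7.79% of the miR-23 guide reads and in MNR 42.0 ± 2.20% (SD, n = 6), while miR-23a-3p and miR-23b-3p together came to 834 ± 109 and 843 ± 151 RPM. The log2 ratio of 23a-3p over 23b-3p was -1.03 ± 0.50 in controls and -0.47 ± 0.13 in MNR, a difference of 0.56 ± 0.211 (SE; exact permutation p = 0.0346, adjusted p = 0.211). Each MNR fetus exceeded the control median, but control replicate 1, at -0.23, lay above all of them. Without control replicate 1 the difference was 0.72, and the cause was not tested. Leaving out this overlapping control also separates the diets fully. The p is then again the smallest possible (exact permutation p = 0.00216, adjusted p = 0.0281) and adds no support. With control replicate 6, the shallowest library, left out, adjusted p was 0.295 for this ratio and 0.169 for that of miR-27a-3p to miR-23a-3p.

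The log2 ratio of miR-27b-3p to miR-23b-3p was 3.19 ± 0.50 in controls and 3.65 ± 0.189 in MNR (exact permutation p = 0.0649, adjusted p = 0.211). That of 27a-3p over 27b-3p was -3.41 ± 0.189 and -3.64 ± 0.159 (SD, n = 6; exact permutation p = 0.0563, adjusted p = 0.211), and 3 controls lay above every MNR fetus. For the 6 arm ratios exact permutation p was between 0.219 and 0.874. The passenger paralogs 24-2-5p over 24-1-5p had a log2 ratio of 2.58 ± 0.809 in controls and 2.82 ± 0.839 in MNR (exact permutation p = 0.615, adjusted p = 0.839).

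**Figure D4:**
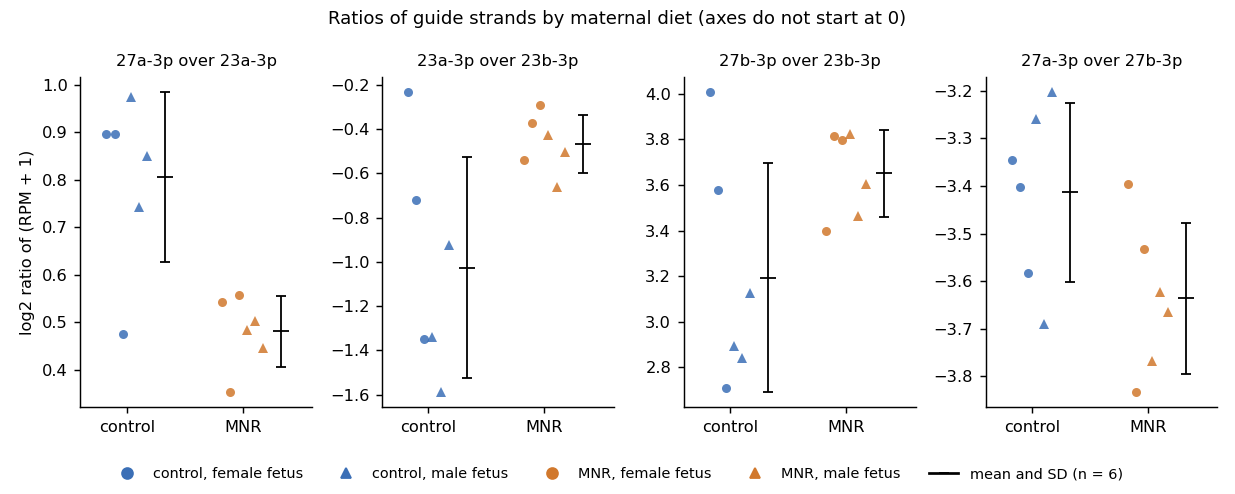
Log2 ratios of (RPM + 1) between guide strands in each fetus, by diet, with mean and SD (n = 6). Vertical axes differ between panels and do not start at 0. Of the controls, 5 of 6 lie above every MNR fetus for 27a-3p over 23a-3p, while for 23a-3p over 23b-3p control replicate 1 lies above every MNR fetus and the other 5 controls below.

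Female and male fetuses were compared in 1 fit of 4 groups of 3. No member passed in females (0 of 481 miRNAs called, 0%), in males (8 of 481, 1.66%), for the difference between them (0%) or for sex (0%). An unadjusted limma p under 0.05 was seen for 1, 2, 1 and 0 of the 9 members in these 4 comparisons, beside 49 (10.2%), 78 (16.2%), 24 (4.99%) and 17 (3.53%) of all 481. Neither edgeR, DESeq2 nor voom on recovered reads called a member, and where limma called 0 miRNAs all 3 called 0.

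Male controls had 246 ± 20.8 RPM of miR-23a-3p and male MNR fetuses 360 ± 84.0 RPM (SD, n = 3). For miR-24-2-5p these levels were 13.3 ± 3.61 and 25.4 ± 6.72 RPM. The male log2 differences were 0.53 for miR-23a-3p and 0.88 for miR-24-2-5p (limma adjusted p = 0.274 and 0.276). These were the 2 members with an unadjusted limma p under 0.05 in males, beside 16.2% of all 481 miRNAs. Female controls had 0.777 ± 0.253 RPM of miR-24-1-5p and female MNR fetuses 3.48 ± 0.538 RPM, which stood for 4 and 14 reads. In males it was at 2.61 ± 1.84 and 1.48 ± 1.13 RPM, or 9 and 5 reads. Of the male control reads 7 were in control replicate 5, at 4.68 RPM. The female log2 difference was 1.34 (limma adjusted p = 0.426) and that of males minus that of females was -1.85 (adjusted p = 0.783). The authors' deposited table gave an unadjusted p of 0.00141 for miR-24-1-5p in females and 0.415 in males. In males it gave 0.0850 for miR-23a-3p and 0.0504 for miR-24-2-5p. No other member had a deposited p under 0.05 within either sex.

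The guide strands were also compared with each other across the 12 fetuses, 10 pairs in all. The closest pair crossed the clusters. miR-23a-3p and miR-27b-3p had a Pearson r of 0.92 (permutation p = 3e-05, adjusted p = 0.0003) and a Spearman rho of 0.84 (permutation p = 0.001, adjusted p = 0.01). Its r was 0.77 without MNR replicates 3 and 4, the fetuses farthest from the median of miR-23a-3p, 0.85 within controls and 0.96 within MNR. miR-27a-3p followed miR-27b-3p (r = 0.80, permutation p = 0.00214, adjusted p = 0.0107; rho = 0.66, p = 0.0236, adjusted p = 0.0643; r = 0.71 without control replicate 1 and MNR replicate 3).

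Within the mir-23a cluster, miR-23a-3p and miR-27a-3p had an r of 0.76 (permutation p = 0.00425, adjusted p = 0.0142; rho = 0.65, p = 0.0257, adjusted p = 0.0643). Over the 10 fetuses other than MNR replicates 3 and 4 it was 0.51 and no longer passed (permutation p = 0.126). Within the 6 controls, which do not include these fetuses, r was 0.81, and within MNR it was 0.98. For miR-23a-3p and miR-24-3p r was 0.74 (permutation p = 0.00589, adjusted p = 0.0147; rho = 0.71, p = 0.0117, adjusted p = 0.0585). The pooled r was 0.40 without the same MNR fetuses (permutation p = 0.249), and r was 0.31 within controls and 0.94 within MNR. Median-ratio scaling lowered r to 0.60 for miR-27a-3p and miR-27b-3p, 0.48 for miR-23a-3p and miR-27a-3p and 0.39 for miR-23a-3p and miR-24-3p, none of them past the threshold then. It left miR-23a-3p and miR-27b-3p at 0.81 (permutation adjusted p = 0.0106).

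miR-23b-3p stood apart from the guide of its own precursor. Its r with miR-27b-3p was 0.0089 over all fetuses (permutation p = 0.978; rho = -0.11, p = 0.733). With the remaining guides r ran from -0.16 to -0.079, with a permutation adjusted p of at least 0.816. Without MNR replicates 3 and 4 its r with miR-23a-3p was -0.67 (unadjusted permutation p = 0.0327), so the pooled r of that pair depended on these fetuses. For miR-27a-3p r was 0.080 without control replicate 1 and MNR replicate 3. Without control replicates 3 and 5 it was 0.28 for miR-27b-3p and 0.43 for miR-24-3p. The diets differed in sign: within controls the r of miR-23b-3p with the other 4 guides ran from -0.82 to -0.39, and within MNR from 0.84 to 0.94 (n = 6 each). That difference was not tested. In MNR, replicates 3 and 4 held the highest level of all 5 guides, and all 10 pairs had r of at least 0.84. The part of these fetuses in the MNR correlations was not tested. These libraries also had the largest log2 shift between median-ratio and RPM scaling, 0.25 and 0.28, against -0.23 to 0.10 in the other 10.

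**Figure D5:**
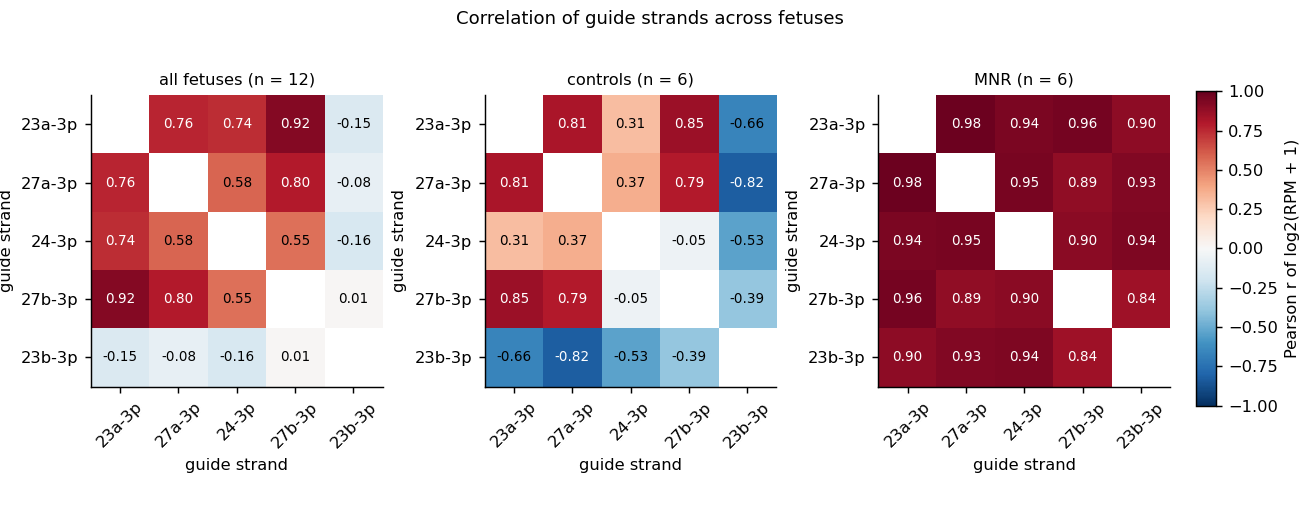
Pearson r of log2(RPM + 1) between guide strands across all fetuses (left), controls (middle) and MNR fetuses (right), from blue (-1) to red (1). miR-23b-3p has r near 0 with the other guides over all fetuses, below 0 in controls and above 0.8 in MNR, where 2 fetuses are high for every guide.

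Other miRNAs of the cortex followed single members as closely as the family did. By the rule of highest r among tested non-members, the nearest to miR-23a-3p were miR-885-5p (r = 0.91, rho = 0.94), miR-431-3p (0.90, 0.85) and miR-376c (0.88, 0.88). For miR-27a-3p they were miR-431-5p (r = 0.93, rho = 0.90), miR-151b (0.91, 0.94) and miR-151a-5p (0.91, 0.93). miR-27b-3p was nearest to miR-425-3p (r = 0.89, rho = 0.90), miR-885-5p (0.89, 0.88) and the oligodendrocyte miRNA miR-338-3p (0.88, 0.83). miR-24-3p was nearest to miR-652-3p (r = 0.91, rho = 0.90), miR-328 (0.89, 0.90) and miR-655 (0.87, 0.90). For miR-23b-3p the highest r was 0.63 (rho = 0.60), with the smooth muscle miRNA miR-143-3p, then miR-543 (0.60, 0.50) and miR-378a-5p (0.59, 0.62). These are descriptions over 12 fetuses picked as the highest of many, and all values of a fetus share its library. The median r over tested non-members was 0.35 for miR-23a-3p, 0.24 for miR-27a-3p, 0.31 for miR-27b-3p, 0.32 for miR-24-3p and -0.0091 for miR-23b-3p.

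Lists of miRNAs were also counted for diet, some of processes that the family is known for and others of cell types in general. Of all tested miRNAs 2.49% were called higher and 0.208% called lower. Of 18 angiogenic miRNAs 0 were called (median log2 difference 0.19, against 0.23 over all), led by miR-126-5p (mean 6126 RPM for controls, 6165 RPM for MNR) and miR-221-3p (2409 and 2811 RPM). Of 8 endothelial miRNAs 0 were called (median 0.027), led by miR-99b-5p at 9077 and 6589 RPM, and their sum overlapped between diets (17832 to 28413 RPM in controls, 13952 to 26100 RPM in MNR). Of 10 miRNAs of neuron death and survival 0 were called (0.17), led by miR-181a-5p at 71285 and 74516 RPM and miR-181b-5p at 3414 and 3730 RPM.

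Of the 9 tested lipid miRNAs, miR-122-5p of the liver was lower (3.54 and 0.228 RPM; median of the list 0.17). It was at 1.47 to 9.75 RPM in single controls and 0 to 1.37 RPM in single MNR fetuses. With 1 read worth 0.527 to 1.95 RPM, this call rested on few reads. Without control replicate 6 its control mean was 2.30 RPM (limma adjusted p = 0.0366), and it was called in 10 of the 22 alternatives that gave an adjusted p (0.0261 to 0.105). Neither miR-143-3p (25632 and 23311 RPM) nor, next in abundance, miR-103a-3p (5139 and 5767 RPM) passed for diet, and miR-613 was at 0 in every library. None of the 4 oligodendrocyte miRNAs was called (median 0.25; miR-338-3p at 276 and 337 RPM, miR-338-5p at 28.03 and 28.9 RPM), nor any of 7 smooth muscle (0.23; miR-143-3p and miR-199a-3p, the latter at 212 and 321 RPM) or 6 microglia and leukocyte miRNAs (0.18; miR-146a-5p at 282 and 325 RPM, miR-142-5p at 114 and 132 RPM). Among 5 erythroid miRNAs miR-451a was higher (244 and 547 RPM; median 0.64; miR-486-5p at 2742 and 3513 RPM), and among 8 neuron miRNAs miR-129-5p was (951 and 1371 RPM; median 0.25; miR-9-5p at 75172 and 79544 RPM, miR-128 at 16151 and 20654 RPM). The call of miR-451a held in 24 of 24 alternatives and that of miR-129-5p in 7 (adjusted p 0.0111 to 0.240). The part of any cell type in the values of the family was not tested.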

How the data were processed

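Total RNA was extracted with a column kit and made into small RNA libraries with an Illumina kit, per the labels' protocols. The authors deposited normalised levels in RPM for each library, rounded to 2 decimals, the number of pooled reads of each entry as a count, and p-values for diet without adjustment. The sources used here name neither aligner nor counter; the build hg18 stands, with no role, in the submitters' processing notes. Entries carry human miRNA names.

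Whole reads were recovered from the deposited RPM steps: of values above 0, 100% came out whole to within 0.0051 RPM, with 513029 to 1898763 reads per library. Without molecular identifiers, intervals and the floor of 3 reads describe counting error alone. For each mature name the entry with most pooled reads was kept.

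limma 3.58.1 with a trend (R 4.3.3) was fitted to log2(RPM + 1) of the 481 names whose mean reached 1 RPM, and p was adjusted (Benjamini-Hochberg) over these; this scale understates changes of low miRNAs. Ratios were tested with exact permutation tests (4096 sign flips, or 924 splits by diet), and correlations with 100000 permutations (NumPy 2.4.6). Alternatives used edgeR 4.0.16, DESeq2 1.42.0 and voom on recovered reads, other scalings, filters and pseudocounts, and each fetus left out. On recovered reads edgeR called 3 miRNAs for diet. The fit was tested on simulated data.

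Named miRNAs were all members, the 3 tested non-members with the highest r with each guide strand, and from each of 10 lists the 2 with most reads plus whatever was called. Members and lists were chosen with earlier results of these data known. The p-values measure the spread between these libraries, 1 per fetus.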

Additional observations from a re-analysis of the deposited data

Results flagged for a closer look

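Among 48 sets of 6 values (11 levels and 13 ratios in each diet), 4 held a value whose gap to the next was over 0.625 of the set's range, the critical value for 6 samples. For independent values with a normal spread, chance alone gives about 1 in 20. The sets here share values and some hold few or no reads, so 4 of 48 cannot be set against that rate.

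miR-27b-5p was at 16.7 RPM (18 reads) in MNR replicate 4, with the next MNR fetus at 8.61 RPM. This fetus also had the highest miR-27b-3p of all 12. miR-24-1-5p was at 4.68 RPM (7 reads) in control replicate 5, with the next control at 1.95 RPM, and the log2 ratio of 24-1-5p over 24-3p was -6.34 there, against -7.86 in the next control. miR-23a-5p was at 0.8 RPM in MNR replicate 1, which is 1 read, and at 0 in all other fetuses.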

How the results depend on the processing

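No member passed the threshold in any comparison under any alternative that gave it an adjusted p. The 4 called guide and passenger paralog ratios other than 23a-5p over 23b-5p, and 5 of the 6 arm ratios, kept direction and call in all 16 alternatives; the ratio of 23a-5p over 23a-3p lost its call (-8.61) without a pseudocount, where 1 fetus was left. Without a pseudocount 23a-5p over 23b-5p gave no value, since no fetus had reads of both. With each fetus left out 23a-5p over 23b-5p ran from -0.60 to -0.38, and by diet 23a-3p over 23b-3p from 0.45 to 0.72 and 27a-3p over 23a-3p from -0.39 to -0.29.

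The number of miRNAs called for diet was 13, 1 with a pseudocount of 5, no filter or summed entries, 3 with median-ratio scaling, TMM scaling, edgeR or voom, 7 with sex as a covariate, and 1 to 26 with a fetus left out. In males it was 8, 2 without a filter, 0 with a filter of 10 RPM, 3 with DESeq2, and 0 to 10 with a fetus left out; in females it was 0, and 0 to 2.

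Uncalled diet differences near 0 changed sign. Under median-ratio scaling, TMM scaling, edgeR, DESeq2 and voom miR-27a-3p was at -0.17, -0.15, -0.15, -0.18 and -0.15. miR-27b-5p was at -0.19, -0.18, -0.14 and -0.20 under median-ratio scaling, TMM scaling, edgeR and voom, and at -0.0035 over 1 entry per name. With a fetus left out they ran from -0.037 to 0.14 and from -0.18 to 0.13. The diet difference of the log2 ratio was -0.18 for 24-1-5p over 24-3p with a pseudocount of 5 and -0.43 for 23b-5p over 23b-3p without one. With a fetus left out, the ranges crossing 0 were -0.083 to 0.36 for 24-1-5p over 24-3p, -0.0083 to 0.40 for 27a-5p over 27a-3p, -0.10 to 0.34 for 23b-5p over 23b-3p, -0.027 to 0.39 for 23a-5p over 23b-5p and -0.014 to 0.46 for 24-2-5p over 24-1-5p. The median log2 difference of all miRNAs was 0.23 in RPM and 0.033 with median-ratio scaling.

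Correlations lost the threshold under median-ratio and TMM scaling for miR-23a-3p with miR-27a-3p (0.48 and 0.55), miR-23a-3p with miR-24-3p (0.39 and 0.44) and miR-27a-3p with miR-27b-3p (0.60 and 0.65), and that of miR-23b-3p with miR-27b-3p turned to -0.13 and -0.074. The causes were not tested. No paired analysis was possible because the labels give no replicate numbers that groups share. Depth limits the passenger strands: miR-27a-5p, miR-24-1-5p, miR-23b-5p and miR-23a-5p had 25, 32, 8 and 1 reads in all.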

Other observations

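The authors' deposited pooled read count was far above the reads of the 12 fetuses, at 91107548 against 15411512 over all entries, so that 75696036 reads belong to libraries not analysed here. In that remainder miR-27a-5p had 1278 reads, or 16.9 RPM, against 1.62 RPM over the 12 cortex libraries pooled. miR-27a-3p was at 1903 RPM there and at 488 RPM in the cortex libraries, and miR-27b-3p at 14253 and 5707 RPM. miR-23a-3p (325 and 315 RPM), miR-24-2-5p (15.5 and 18.4 RPM) and miR-24-1-5p (2.64 and 2.08 RPM) were closer. What those libraries are is not given in the sources used here, and no test was made.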
